A study of Mus musculus with 9 samples.

Results

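The chemokines and their receptors were examined across fibroblasts that make the long isoform of C/EBPβ, the short isoform or neither. The members are all genes whose symbol reads Ccl, Cxcl, Ccr or Cxcr followed by a number, together with Cx3cl1 and Cx3cr1, which gave 51 of the 23337 genes in the count table, 33 ligands and 18 receptors. Of these, 26 were detected in at least 1 group, 18 were at trace level and 7 had 0 counts in all 9 libraries. Cxcl5, a neutrophil attractant and the ligand that passed the test in both comparisons with the short isoform, was at 22.3 ± 14.7 CPM, the count scaled to a common library size, in those cells, against 128 ± 37.9 in the empty vector cells and 198 ± 58.1 in the cells with the long isoform (SD, n = 3 each).

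Chemokines are small secreted proteins that guide migrating cells along a gradient, and they are grouped by the spacing of their first cysteines into CC, CXC and CX3C chemokines. CXC chemokines with a glutamate-leucine-arginine (ELR) motif attract neutrophils through Cxcr2, the monocyte chemoattractants of the CC group act through Ccr2, and Cxcl12 holds and guides progenitor cells and lymphocytes through Cxcr4. Most receptors signal through G proteins and are made mainly by leukocytes, whereas the atypical receptor Cxcr7, now named Ackr3, takes up Cxcl12 without G protein signalling. Fibroblasts respond to inflammatory signals by secreting chemokines, and the promoters of many of these genes are known targets of NF-κB and of C/EBP factors.

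All groups were immortalised mouse embryonic fibroblasts (MEFs) without a functional Cebpb gene, on a mixed C57BL/6 x 129 background and kept under Zeocin selection. They were stably transfected with an empty vector (EV) or with a vector that carries rat C/EBPβ-LAP, the long isoform that activates transcription, or rat C/EBPβ-LIP, the short isoform that lacks the activation domains. Both isoforms thus came from a plasmid and not from the Cebpb locus, and its promoter is not named in the sources used here. There were 3 RNA libraries in each group. Whether each group was a clone or a pool of transfected cells, and whether libraries came from separate cultures, is not given in the sources used here, so p-values measure the spread between these libraries, which may be technical. The question was which members are transcribed in these cells and which differ between the isoforms.

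Each library held 24839139 to 33522082 counted reads, and 3 counts corresponded to 0.0895 to 0.121 CPM. Mouse Cebpb had 684 to 1041 counts in EV, 709 to 1077 in LAP and 816 to 985 in LIP, so the groups overlapped. The constructs are of rat origin, and whether their reads are counted for mouse Cebpb was not tested. The labels were thus not checked by these counts. Of 11 fibroblast markers, 10 were detected, with a summed level of 35260 to 39729 CPM in EV, 29442 to 43171 in LAP and 17012 to 30253 in LIP. Lum was at 0 in every LIP library. None of the 11 passed in LIP against EV by the edgeR quasi-likelihood test, 7 were lower at an unadjusted p under 0.05, and DESeq2 and the edgeR exact test each called Col1a1, Col1a2 and Lum lower. In LIP against LAP 0 passed, where 0.837% of all genes were lower, and 7 were lower unadjusted, against 5.98%. With the replicate numbers in the fit 8 passed as lower, against 4.79%. Of 14 haematopoietic markers, Ptprc, Itgam and Tyrobp had 0 counts in all libraries, 3 were detected, and the list summed to 7.31 to 9.17 CPM in EV, 10.3 to 11.5 in LAP and 6.59 to 11.2 in LIP. Pecam1 and Emcn, which mark endothelium, were at 0 counts throughout, and that list of 6 summed to between 1.67 and 3.79 CPM in any library. The epithelial list of 6 summed to 577 to 706 CPM in EV, 485 to 986 in LAP and 587 to 1004 in LIP, nearly all of it Krt8 and Krt14. Of these 3 lists 0 genes passed in any comparison by the quasi-likelihood test, with the smallest p in LIP against EV for Cd14, Tek and Cdh1, all lower in LIP and past 0.05 only without adjustment. Krt8 and Krt18 were higher in LIP than in EV by the same unadjusted threshold. In LIP against LAP, DESeq2 called Cd14 lower, and Cd14, Csf1r and Tek were lower with the replicate numbers in the fit. The lower fibroblast markers in LIP move with the lower chemokines described next, and their part in them was not tested.

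A member was called detected in a group where every library had more than 3 counts. By this rule 24 members were detected in EV, 25 in LAP and 21 in LIP, and 20 were detected in some group when at least 10 counts were asked of every library. Levels of different genes were compared as CPM per kb of exon, since longer transcripts give more reads. Ccl2 was the most abundant ligand in EV by this scale at 262 ± 94.5 CPM per kb, followed by Ccl7 at 150 ± 29.3, Cxcl1 at 146 ± 7.89, Cxcl12 at 109 ± 10.1, Cxcl5 at 68.5 ± 20.3 and Cx3cl1 at 34.9 ± 6.63 (SD, n = 3). The ranges of Ccl2 and Ccl7 overlapped, as did those of Ccl7 and Cxcl1, and the later neighbours in this order did not overlap. A wide gap followed, with the lymphocyte attractant Ccl17 next at 4.50 ± 2.01 CPM per kb. In LIP the order changed, and Cxcl12 at 85.7 ± 6.78 CPM per kb stood beside Ccl2 at 164 ± 113 and Ccl7 at 65.1 ± 40.5, while Cxcl5 was at 11.9 ± 7.92. The receptors were much lower, and the highest of them in EV were Cxcr7 at 2.03 ± 0.194 and Cxcr2 at 1.07 ± 0.288 CPM per kb.

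**Figure D1:**
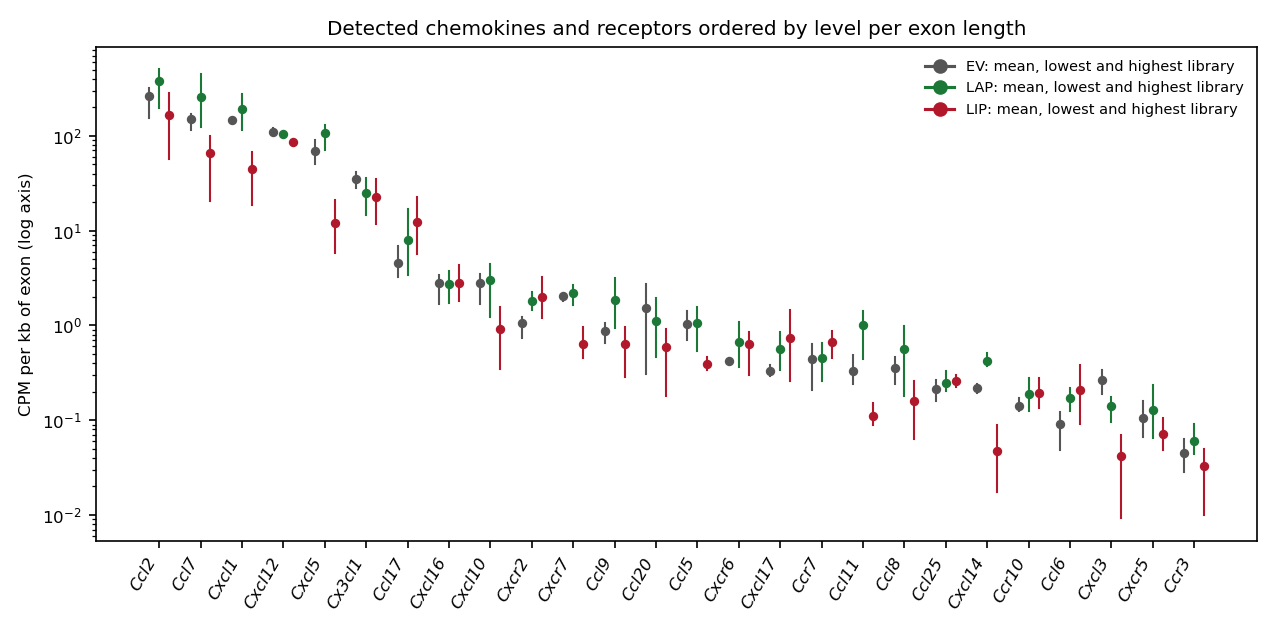
Level of the 26 detected members in CPM per kb of exon (log axis), with the mean of 3 libraries as a point and the lowest and highest library as a line, for EV in grey, LAP in green and LIP in red. Cxcl12, Ccl2, Ccl7, Cxcl1, Cxcl5 and Cx3cl1 form an upper set in EV, and all other members lie below 10 CPM per kb there.

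Members with 0 counts in all 9 libraries included the ligands Ccl26, Cxcl11 and Cxcl13 and the receptors Ccr6 and Ccr9. A count of 0 allows up to 3 counts, that is up to 0.0895 to 0.121 CPM depending on the library, and such limits cover counting error only because without molecular identifiers copies made by PCR are counted as well. The 18 members at trace level had 1 to 37 counts over the 9 libraries together and at most 10 in a library. They were the ligands Ccl1, Ccl3, Ccl4, Ccl12, Ccl19, Ccl22, Ccl24, Ccl28, Cxcl2, Cxcl9 and Cxcl15 and the receptors Ccr1, Ccr2, Ccr4, Cxcr1, Cxcr3, Cxcr4 and Cx3cr1. Several receptors of abundant ligands were among them. Ccr2, which binds Ccl2 and Ccl7, had 1 count over all 9 libraries, Cxcr4, which binds Cxcl12, had 10, and Cx3cr1, which binds Cx3cl1, had 33. Ccr1 had 2 counts in every EV library and 0 in every LIP library, and no fold is given since both groups are below the floor.

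The 6 ligands Cxcl12, Ccl2, Cxcl1, Ccl7, Cxcl5 and Cx3cl1, made up 97.0% to 99.0% of all chemokine ligand CPM in every library. The 33 ligands together reached 1907, 1894 and 1815 CPM in EV, 2194, 2734 and 1597 in LAP and 1374, 1155 and 944 in LIP. Every LIP library was thus below every EV and every LAP library, while LAP spread on both sides of EV. In bulk RNA, fewer cells that make a ligand and less RNA per cell cannot be told apart. Most of the difference lay outside Cxcl12. Without Cxcl12 the sum was 984 ± 132 CPM in EV, 1327 ± 544 in LAP and 457 ± 270 in LIP, and the share of Cxcl12 in the ligand CPM was 47.5% ± 5.73, 40.7% ± 10.9 and 62.6% ± 16.6 (SD, n = 3). The 18 receptors together reached 12.8 ± 1.59 CPM in EV, 16.3 ± 3.08 in LAP and 11.7 ± 3.55 in LIP, and these ranges overlapped.

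**Figure D2:**
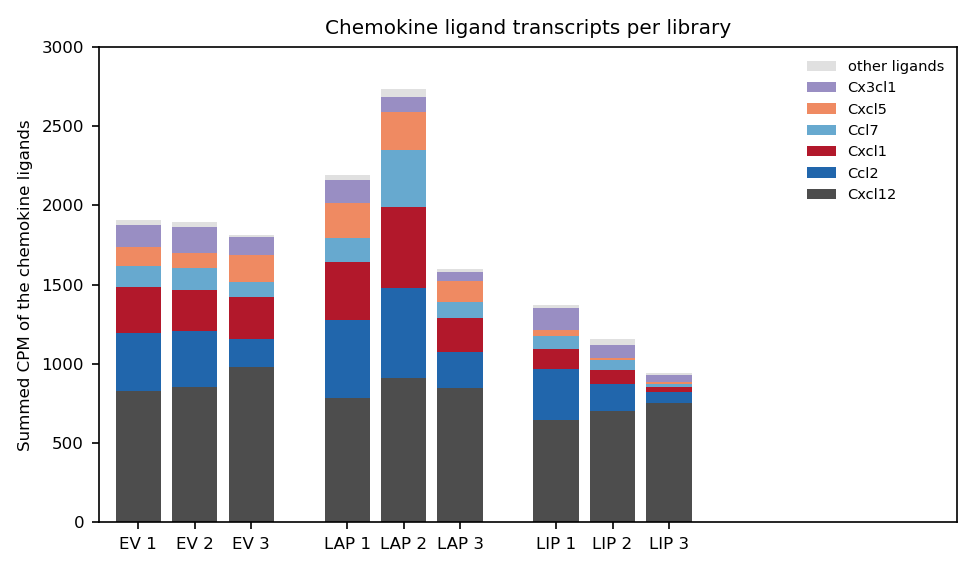
Summed CPM of the 33 chemokine ligands in each of the 9 libraries, stacked by ligand with the 6 most abundant shown apart from all others. The grey Cxcl12 part is similar in all libraries at 645 to 982 CPM, and the parts above it shrink in the LIP libraries.

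In LIP against EV, 42 members had at least 1 count and were tested with edgeR's quasi-likelihood test, adjusted over all 18203 genes tested. Cxcl5 and Cxcr7 passed the adjusted threshold of 0.05 as lower in LIP, that is 2 members against a background of 0.33% of all genes. None was higher, against 0.0659% of all genes. DESeq2 and the edgeR exact test each called 5 members lower, against 1.82% and 1.33% of all genes, and 0 higher, against 0.536% and 0.324%. Without adjustment (p under 0.05), 10 members were lower and 2, Ccl17 and Cxcr2, were higher, where 6.75% and 4.23% of all genes were. The lower ones include Ccr1, with 6 EV counts and below the floor in both groups. The libraries did not overlap for 11 members that were lower in LIP, Ccr1 again among them. That is 26.2% of those tested, against 8.83% of all genes, and 0 did so as higher, against 6.8%. The log2 fold change over the 16 members with a mean of at least 1 CPM had a median of -0.54, where the 10993 genes at that level had 0.01, and over all 42 tested it was -0.52 against 0.04. The 2 calls were lost when genes with low counts were left out (edgeR's filterByExpr or at least 10 counts in every library), in edgeR's newer quasi-likelihood form, and without LIP library 2. Without EV library 2 or 3 there was 1, and without LIP library 1 or 3 there were 4.

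Between LAP and EV, 0 of 43 members tested passed in either direction, against 0.033% lower and 0.0275% higher of 18156 genes. The edgeR test with the replicate numbers as a block, against backgrounds of 0.165% lower and 0.132% higher, also called 0, as did DESeq2 (0.102% lower and 0.0637% higher) and the edgeR exact test (0.11% and 0.0716%). At an unadjusted p under 0.05, 6 members were higher in LAP, namely Ccl11, Ccl7, Ccl9, Cxcl14, Cxcl5 and Cxcr2, against 1.93% of all genes, and Cxcl3 was lower, against 1.34%. Ccl6, Cxcl14 and Cxcr2 did not overlap as higher and Cxcl3 did not as lower, where 3.96% and 3.61% of all genes did so. The median over the 16 members with at least 1 CPM was 0.29, against 0.00027 over all such genes. Without LAP library 3, Ccl11 and Ccl9 passed as higher (adjusted p = 0.0307 and 0.0482).

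LIP against LAP compares the isoforms directly. Of 41 members tested, 6 were lower in LIP, namely Cxcl5, Cxcl1, Ccl11, Cxcl14, Cxcr7 and Ccl7, against 0.837% of 18166 genes, and 0 were higher, against 0.209%. Libraries numbered alike deviated together in this pair of groups, and with that number as a block in the fit 10 members were lower (Ccl2, Ccl5, Ccl9 and Cxcl10 in addition), against a background of 4.79%, and Ccl17 was higher, against 1.72%. In that edgeR fit the adjusted p was 1.10e-25 for Cxcl5, 1.12e-16 for Cxcl1 and 6.55e-14 for Ccl7. It was 5.59e-08 for Cxcr7, 4.23e-06 for Ccl11 and 8.11e-05 for Cxcl14. These values rest on 6 libraries with both group and number in the fit. The block was not tried together with a low-count filter or the newer quasi-likelihood form, under which most or all unblocked calls were lost. Without adjustment 12 members were lower and 0 higher, against 5.98% and 3.3% of all genes. Without overlap, 9 were lower and 0 higher, against 6.9% and 5.91%. The median over the 16 members with at least 1 CPM was -0.57, where the 10992 genes at that level had 0.0031. Without LAP library 2 only Cxcl5 passed, without LAP library 3 there were 9, in the newer quasi-likelihood form there was 1, and with filterByExpr or at least 10 counts in every library there were 0. The 3 comparisons share libraries and are not independent of each other.

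**Figure D3:**
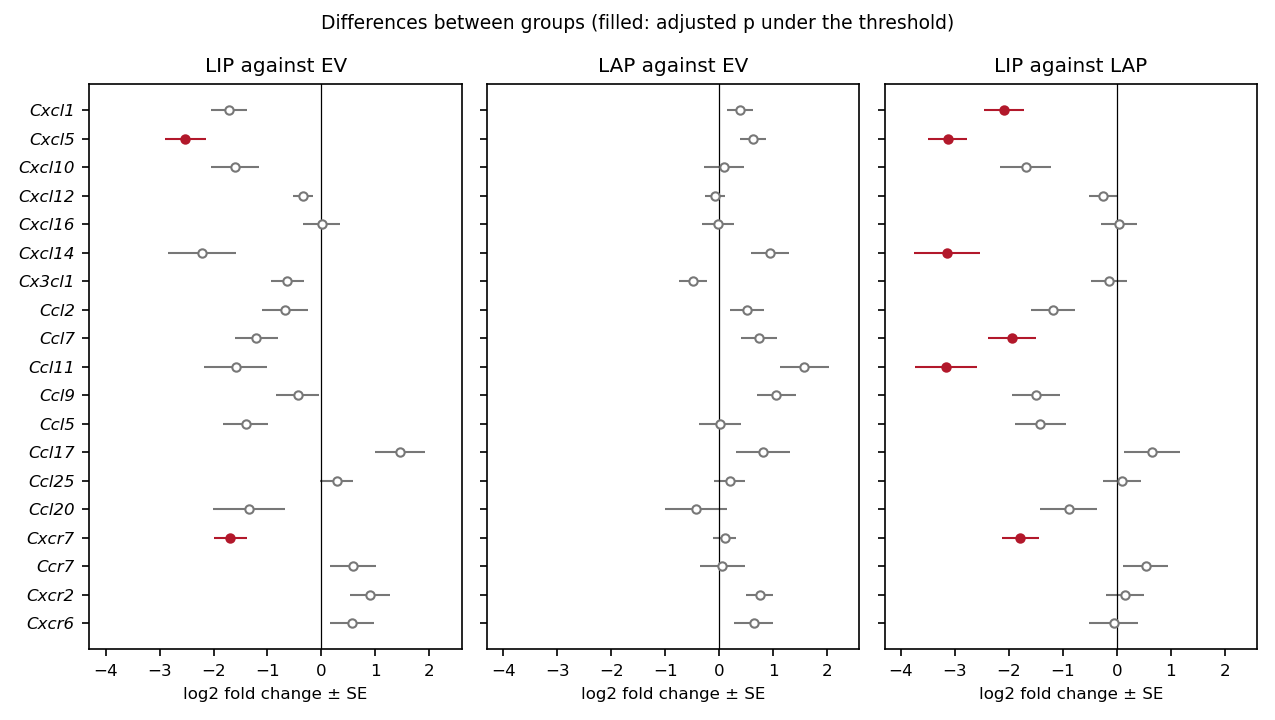
Log2 fold change with its SE for the 19 members with a mean of at least 1 CPM in a group or past the threshold, in LIP against EV, LAP against EV and LIP against LAP. Filled red points are those with an adjusted p under 0.05 (edgeR): 2 in LIP against EV, 0 in LAP against EV and 6 in LIP against LAP.

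The ELR CXC ligands lie within 147 kb of each other on chromosome 5. Cxcl5 (90759298 to 90761625 on GRCm38.p6), a neutrophil attractant acting on Cxcr2, was at 121, 93.5 and 168 CPM in EV, at 223, 240 and 132 in LAP and at 38.9, 17.04 and 10.8 in LIP. All LIP libraries were below all others, and LAP and EV overlapped. It was 5.75-fold lower in LIP than in EV, with a log2 fold change of -2.52 ± 0.38 (SE, adjusted p = 0.0152, edgeR), and the log2 fold change against LAP was -3.13 ± 0.37 (adjusted p = 0.000373). The exact permutation test gave p = 0.1 in both, the smallest that 3 against 3 libraries allow, as it did for every member without overlap. Leaving out LIP library 2 gave an adjusted p of 0.0792 against EV, and the log2 fold change stayed between -3.19 and -2.18 over all 6 libraries left out in turn. Low-count filters gave adjusted p = 0.131 and 0.178.

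Cxcl1 (90891245 to 90893121), the mouse counterpart of a growth-regulated neutrophil attractant, was at 291, 262 and 269 CPM in EV, at 361, 513 and 215 in LAP and at 127, 89.0 and 35.0 in LIP. The LIP libraries were again below all others, and EV varied least. Against LAP its log2 fold change was -2.09 ± 0.37 (adjusted p = 0.00972, edgeR), lost without LAP library 2 (adjusted p = 0.117). Against EV it was -1.71 ± 0.34 and missed the threshold (adjusted p = 0.0540), which it passed in DESeq2 (adjusted p = 0.000900) and in the exact test (adjusted p = 0.00244). Cxcl3, named here after its values were seen, had 38, 18 and 31 counts in EV, 20, 15 and 9 in LAP and 6, 5 and 1 in LIP. Its summed counts scaled by library size were 6.68 times higher in EV than in LIP (95% counting interval 3.63 to 13.4). They were 3.61 times higher in LAP than in LIP (1.87 to 7.51). Neither difference passed (adjusted p = 0.0707 and 0.298, edgeR). Counting intervals here and below pool the libraries of a group and leave out the spread between them. Cxcl2 and Cxcl15 in the same cluster had at most 6 counts in any library. Ppbp, a further ELR CXC ligand outside the symbol rule, was at 10.3 ± 3.16 CPM in EV, 13.1 ± 6.58 in LAP and 3.66 ± 2.88 in LIP (SD, n = 3), lower in LIP than in LAP (log2 fold change -1.83 ± 0.44, adjusted p = 0.0488, edgeR) and not past the threshold against EV (adjusted p = 0.194). The call was lost without LAP library 1 or 2 or LIP library 2 (adjusted p = 0.139, 0.142 and 0.157), in the edgeR exact test (0.0562), with total counts only (0.0761), under both low-count filters (0.297 and 0.338) and in the newer form (0.205). Settings that kept it included DESeq2 (0.0120), all 9 libraries in 1 model (0.0402) and the replicate block (1.32e-10).

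**Figure D4:**
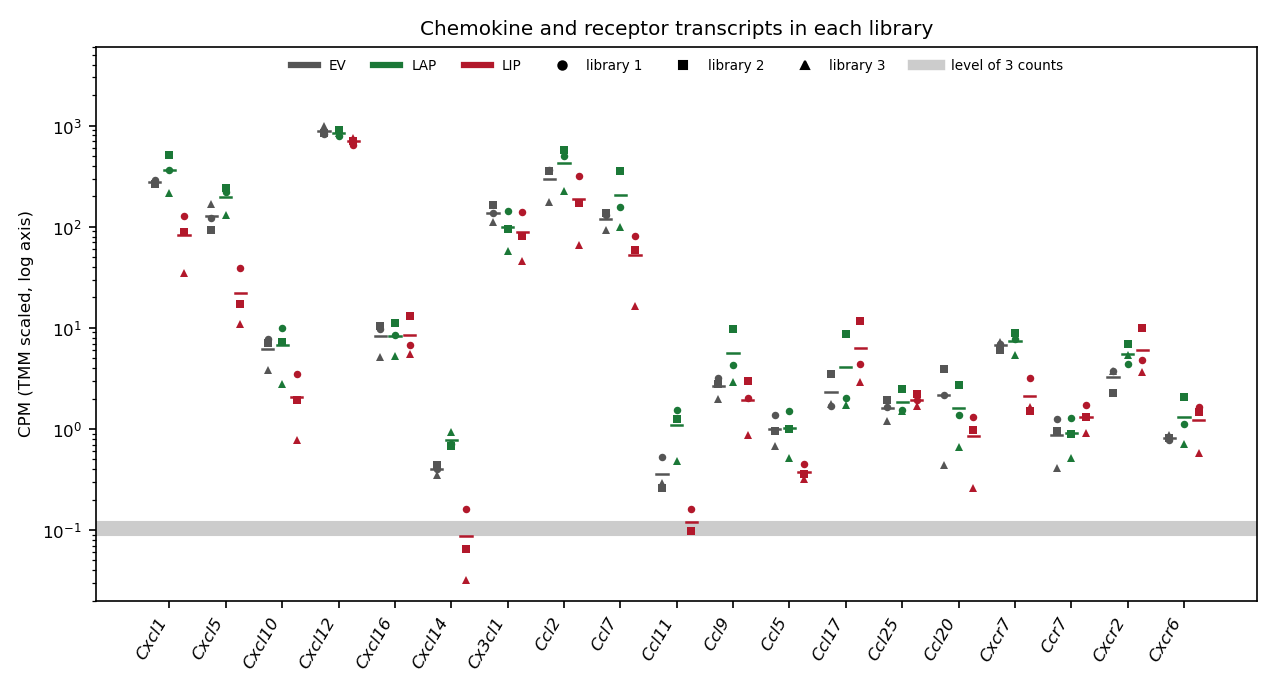
CPM of the 19 described members in each library (log axis), with colour for the group, marker shape for the library number, bars for group means and a grey band for the level of 3 counts. For Cxcl5, Cxcl1, Cxcr7, Ccl7, Cxcl14 and Ccl11 all LIP libraries lie below all EV and LAP libraries, whereas for Cxcl16, Ccl25 and Cxcr6 the groups overlap.

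Promoters from RefSeq on GRCm38.p6 were matched for 36 members with 38 start sites, each covering 250 bases before to 50 after the start. Cxcl5, Ccl2, Ccl7 and Ccl11 were among the members without an entry, which the shares below leave out. The NF-κB letters GGANNTTCC, searched on both strands, were in 7 of the 38 (18.4%), against 4.26% of all 32851 promoters, among them Cxcl1, Cxcl2 and Cxcl3. The 150 bases before the start of these neighbours and of Cxcr7 are shown because the first set shares 1 spelling of these letters at a like distance from the start and the last holds the C/EBP letters. Capitals mark the matches, and all are on the plus strand, at chr5:90891095-90891244, chr5:90903749-90903898, chr5:90785951-90786100 and chr1:90203830-90203979.
Cxcl1: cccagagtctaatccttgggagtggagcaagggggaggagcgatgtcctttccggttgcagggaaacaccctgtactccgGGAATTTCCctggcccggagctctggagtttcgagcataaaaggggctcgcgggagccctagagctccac
Cxcl2: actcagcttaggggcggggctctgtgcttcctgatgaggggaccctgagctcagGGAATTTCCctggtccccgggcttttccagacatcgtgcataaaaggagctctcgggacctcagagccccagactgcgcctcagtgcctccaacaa
Cxcl3: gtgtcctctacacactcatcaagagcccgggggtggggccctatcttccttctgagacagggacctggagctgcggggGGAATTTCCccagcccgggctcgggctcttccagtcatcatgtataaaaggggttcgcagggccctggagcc
Cxcr7: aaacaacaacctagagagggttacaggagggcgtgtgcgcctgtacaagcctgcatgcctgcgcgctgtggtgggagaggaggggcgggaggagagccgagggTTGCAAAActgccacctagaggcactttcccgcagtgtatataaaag
The match starts 70 bases before the start of Cxcl1, 96 before Cxcl2 and 72 before Cxcl3. Of these, Cxcl1 was abundant and Cxcl2 was at trace level, so the shared letters did not go with a shared level. The C/EBP letters TTGCNNAA were in 2 of the 38 member promoters (5.26%), those of Cxcr7 and Cxcl13, against 10.8% of all promoters, and the palindrome TTGCGCAA was in 0, against 0.183%. The AP-1 letters TGANTCA were in 6 (15.8%, against 7.81%) and the interferon response letters GAAANNGAA in 8 (21.1%, against 8.56%), and Cxcl10 held both of these and the NF-κB letters. A match describes the letters only and shows neither a bound site nor a cause.

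Ccl2, Ccl7 and Ccl11 lie within 27.4 kb on chromosome 11. Ccl2 (82035577 to 82037452), the main monocyte attractant, was at 368, 353 and 174 CPM in EV, at 497, 570 and 223 in LAP and at 321, 173 and 65.4 in LIP. The groups overlapped, and within each group the library numbered 3 was the lowest. Its log2 fold change in LIP was -1.18 ± 0.41 against LAP (adjusted p = 0.278, edgeR), and -1.36 ± 0.19 with the replicate block (adjusted p = 1.71e-08). Ccl7 (82045712 to 82047525), which attracts monocytes and eosinophils, was at 131, 136 and 93.1 CPM in EV, at 156, 357 and 99.6 in LAP and at 80.3, 59.4 and 16.6 in LIP. The LIP libraries were below all others. It was lower in LIP than in LAP with a log2 fold change of -1.94 ± 0.44 (adjusted p = 0.0391, edgeR), and this was lost without LAP library 2, LIP library 1 or LIP library 2 (adjusted p = 0.395, 0.0849 and 0.0713) and with total counts only (0.0730). Against EV it was -1.21 ± 0.40 (adjusted p = 0.263).

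Ccl11 (82057832 to 82062955), the eosinophil attractant eotaxin, was far lower, with 17, 7 and 10 counts in EV, 50, 35 and 13 in LAP and 4, 3 and 3 in LIP. In CPM this was 0.529, 0.258 and 0.293 in EV, 1.54, 1.26 and 0.481 in LAP and 0.163, 0.0983 and 0.0969 in LIP, so that LIP was close to the floor and only 1 EV library overlapped LAP. Its summed counts were 9.65 times higher in LAP than in LIP (95% counting interval 5.03 to 20.8) and 3.13 times higher in EV than in LIP (1.51 to 7.10). These intervals leave out the spread between libraries, which ran from 13 to 50 counts in LAP. The fitted log2 fold change was -3.16 ± 0.58 against LAP (adjusted p = 0.0118, edgeR, and 0.111 without LAP library 2) and -1.59 ± 0.58 against EV (adjusted p = 0.323). Ccl8, a further monocyte attractant of this cluster, had 3 to 14 counts in the EV and LAP libraries and 1 to 4 in LIP, and passed in no comparison.

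**Figure D5:**
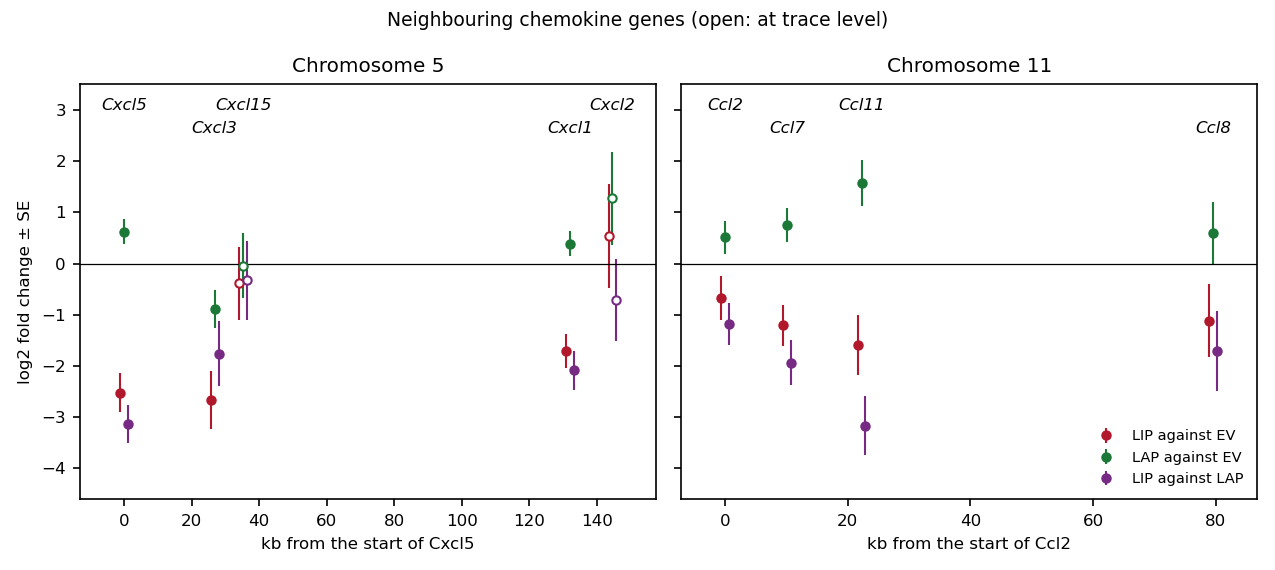
Log2 fold change with its SE of neighbouring chemokine genes against their distance in kb from the first gene, for Cxcl5 to Cxcl2 on chromosome 5 and Ccl2 to Ccl8 on chromosome 11 (Ccl12, with 2 counts in all, is left out). Detected genes are filled and trace genes are open. Both values for LIP are below 0 for Cxcl5, Cxcl3, Cxcl1, Ccl2, Ccl7, Ccl11 and Ccl8, and the wide lines for LIP of Cxcl15 and Cxcl2 cross 0.

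Of the macrophage inflammatory CC ligands, Ccl5, which attracts T cells and monocytes, was at 1.37, 0.959 and 0.674 CPM in EV, at 1.51, 1.01 and 0.518 in LAP and at 0.449, 0.360 and 0.323 in LIP. The LIP libraries were below all others, on 10 or 11 counts each. Its log2 fold change was -1.40 ± 0.41 against EV (adjusted p = 0.194, edgeR) and -1.41 ± 0.48 against LAP (adjusted p = 0.249, and 0.0411 with the replicate block). Ccl9, a mouse attractant of macrophages and dendritic cells, was at 3.20, 2.80 and 1.96 CPM in EV, at 4.25, 9.70 and 2.89 in LAP and at 2.04, 2.95 and 0.872 in LIP. LAP libraries 1 and 2 stood above all EV and LIP libraries, LAP library 3 lay within their range, and EV and LIP overlapped. In LIP against LAP its log2 fold change was -1.49 ± 0.44 (adjusted p = 0.147, edgeR), or -1.48 ± 0.27 with the replicate block (adjusted p = 2.08e-05). Ccl6 had 3 to 21 counts in every library and passed in no comparison.

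The interferon-inducible ligand Cxcl10 (Ccl5 and Cxcl10 both attract activated T cells) was at 7.81, 7.12 and 3.81 CPM in EV, at 10.1, 7.29 and 2.77 in LAP and at 3.51, 1.93 and 0.775 in LIP. All LIP libraries were below EV, and 1 of them was above the lowest LAP library. The log2 fold change was -1.60 ± 0.45 against EV (adjusted p = 0.174, edgeR, and 0.0420 by DESeq2) and -1.69 ± 0.47 against LAP (adjusted p = 0.110, and 2.62e-07 with the replicate block). Cxcl9 and Cxcl11, its relatives in the same cluster, had 6 and 0 counts over all libraries.

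Cxcl12, a homeostatic chemokine of stromal cells, was at 829, 853 and 982 CPM in EV, at 782, 910 and 851 in LAP and at 645, 701 and 756 in LIP. It varied little within groups and the LIP libraries were below all others, but the difference was small. The log2 fold change of LIP was -0.34 ± 0.18 against EV (adjusted p = 0.527, edgeR) and -0.26 ± 0.26 against LAP (adjusted p = 0.763). Cxcl14, a ligand of epithelia and fibroblasts, had 13, 12 and 12 counts in EV, 23, 19 and 25 in LAP and 4, 2 and 1 in LIP, or 0.404, 0.443 and 0.351, 0.709, 0.683 and 0.925, and 0.163, 0.0655 and 0.0323 CPM. The groups were fully separate, in the order LIP, EV and LAP. Summed counts were 9.43 times higher in LAP than in LIP (95% counting interval 4.33 to 24.3), with a fitted log2 fold change of -3.14 ± 0.61 (adjusted p = 0.0185, edgeR, and 0.111 without LAP library 2), and 4.87 times higher in EV than in LIP (2.14 to 12.9, adjusted p = 0.178).

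Cxcl16, a membrane-bound ligand of Cxcr6, was at 9.74, 10.3 and 5.10 CPM in EV, at 8.54, 11.2 and 5.22 in LAP and at 6.78, 13.0 and 5.49 in LIP. The groups overlapped fully, and the 3 log2 fold changes were between -0.02 and 0.04, each smaller than its SE. Cxcl17, a mucosal ligand, had 6 to 34 counts in every library and passed in no comparison. Cx3cl1, a membrane-bound ligand that tethers monocytes, was at 137, 163 and 111 CPM in EV, at 142, 95.4 and 57.9 in LAP and at 139, 80.9 and 46.0 in LIP. Its libraries numbered 1 were alike in all groups, and its log2 fold change was -0.63 ± 0.31 in LIP against EV (adjusted p = 0.486, edgeR) and -0.49 ± 0.26 in LAP against EV (adjusted p = 0.918).

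Among the lymphocyte attractants, Ccl17, a ligand of Ccr4, was at 1.68, 3.51 and 1.76 CPM in EV, at 2.004, 8.66 and 1.74 in LAP and at 4.37, 11.6 and 2.94 in LIP. The library numbered 2 was the highest in every group, and the groups overlapped. It was the ligand with the highest positive log2 fold change among the described members in LIP against EV, 1.45 ± 0.47 (adjusted p = 0.241, edgeR), and 0.65 ± 0.52 against LAP (adjusted p = 0.763), or 0.77 ± 0.25 with the replicate block (adjusted p = 0.0426). Ccl20, a ligand of Ccr6, was at 2.15, 3.87 and 0.439 CPM in EV, at 1.39, 2.73 and 0.666 in LAP and at 1.31, 0.983 and 0.258 in LIP. The groups overlapped and the spread within EV was wide. Ccl25, a ligand of Ccr9, was at 1.65, 1.96 and 1.201 CPM in EV, at 1.54, 2.48 and 1.52 in LAP and at 1.92, 2.23 and 1.68 in LIP, with overlap between all groups.

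Of the receptors, Cxcr7 (90203980 to 90215724 on chromosome 1), which clears Cxcl12, was at 6.999, 6.05 and 7.29 CPM in EV, at 7.71, 8.91 and 5.44 in LAP and at 3.18, 1.51 and 1.65 in LIP. All LIP libraries were below all others, and EV and LAP overlapped. It was 3.23-fold lower in LIP than in EV, with a log2 fold change of -1.69 ± 0.31 (adjusted p = 0.0397, edgeR), and -1.78 ± 0.35 against LAP (adjusted p = 0.0185). The call against EV was lost without EV library 1, 2 or 3 or LIP library 2 (adjusted p = 0.0703, 0.138, 0.0670 and 0.106) and with total counts only (0.0669), and that against LAP without LAP library 2 or LIP library 2 (adjusted p = 0.134 and 0.0519), while the direction held in all of these fits.

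Cxcr2, the receptor of the ELR CXC ligands, was at 3.76, 2.25 and 3.78 CPM in EV, at 4.41, 6.93 and 5.36 in LAP and at 4.78, 9.89 and 3.65 in LIP. The LAP libraries were all above EV, and LIP overlapped both. Its log2 fold change was 0.90 ± 0.36 in LIP against EV (adjusted p = 0.386, edgeR) and 0.75 ± 0.26 in LAP against EV (adjusted p = 0.918). Cxcr6, the receptor of Cxcl16, was at 0.778, 0.812 and 0.879 CPM in EV, at 1.11, 2.08 and 0.703 in LAP and at 1.63, 1.47 and 0.581 in LIP, and Ccr7, which guides cells to lymph nodes, was at 1.24, 0.959 and 0.410 in EV, at 1.29, 0.898 and 0.518 in LAP and at 1.71, 1.31 and 0.904 in LIP. The groups overlapped for both. Ccr3, Ccr10 and Cxcr5 had 1 to 21 counts in every library and passed in no comparison. Cxcr5 and Cxcr6 overlap Bcl9l and Fyco1, which had 43342 and 131 counts over the 9 libraries, Cxcl16 overlaps Zmynd15 with 971 and Ccr10 overlaps Cntnap1 with 1836, and the library kit does not mark strand, so reads of these genes cannot be told apart where they overlap. Reads shared by near-identical stretches, as between Ccl2, Ccl7 and Ccl12 or Cxcl1, Cxcl2 and Cxcl3, may be split between them or lost, since the handling of multiple alignments is not given in the sources used here.

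Chemokine levels also moved with the library number, which the labels give as 1 to 3 in each group. For 10 of the 19 described members (52.6%), namely Ccl2, Ccl5, Ccl7, Ccl9, Ccl20, Ccl25, Ccr7, Cx3cl1, Cxcl10 and Cxcl16, the library numbered 3 was the lowest in all 3 groups, as it was for 11.1% of the 10993 genes that averaged at least 1 CPM. Library 1 was so for Cxcl12 alone, against 6.97% of genes, and library 2 for 0, against 6.83%. Between libraries of the same number, Ccl2 differed in LIP against LAP by -0.63, -1.72 and -1.77 on the log2 scale, Cxcl10 by -1.52, -1.92 and -1.84, Ccl9 by -1.06, -1.72 and -1.73 and Cxcl5 by -2.52, -3.82 and -3.61. All of these pairs were lower in LIP. Ccl17 went the other way by 1.12, 0.42 and 0.76, and Ccr7 by 0.40, 0.54 and 0.80. Pairs of Cxcl16, Ccl25, Cxcr2 and Cxcr6 went both ways. What the numbers stand for is not given in the sources used here.

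Other genes of chemokine biology were followed through 7 lists, of which 4 had a gene past the threshold in LIP against LAP and 0 had one in LAP against EV by the quasi-likelihood test. Of the 11 chemokine ligands with other names, 7 were tested, and Ppbp alone was lower in LIP than in LAP. Of 9 atypical and other receptors only Cxcr7 passed, in both comparisons with LIP. Darc, which scavenges chemokines and is named after its values were seen, had 10, 13 and 9 counts in EV, 2, 1 and 1 in LAP and 0, 0 and 1 in LIP. It was called lower than in EV by the edgeR exact test for both LAP and LIP, and by DESeq2 for LIP.

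Among 18 genes for the cleavage and binding of chemokines, Gpc1, a heparan sulfate proteoglycan of the cell surface, was at 38.2 ± 2.78 CPM in EV, 40.6 ± 13.5 in LAP and 15.7 ± 8.76 in LIP (SD, n = 3). It was lower in LIP than in LAP by a log2 fold change of -1.35 ± 0.32 (adjusted p = 0.0488, edgeR), which was lost without LAP library 1 or 2 or LIP library 2 (adjusted p = 0.120, 0.203 and 0.160), with total counts only (0.0784), under both low-count filters (0.271 and 0.323) and in the newer form (0.211). The call held in DESeq2 (adjusted p = 0.0269), in the edgeR exact test (0.0497) and with the replicate block (3.83e-09). With the replicate block 7 genes of this list were lower in LIP than in LAP, against 4.79% of all genes. They were the syndecans Sdc1, Sdc2 and Sdc3 and the proteases Ctsb, Mmp3 and Mmp9 in addition to Gpc1. Against EV 0 passed, with 6 lower and 0 higher without adjustment, against 6.75% and 4.23% of all genes. DESeq2 and the edgeR exact test called Ctsb and Gpc1 lower in LIP than in EV, against 1.82% and 1.33%. In LAP against EV, Mmp9 was called higher by DESeq2 and the edgeR exact test, and Mmp3 and Mmp9 with the replicate block.

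All 32 genes of NF-κB signalling were tested in LIP against EV, with a median log2 fold change of 0.01. None passed there, and 4 were lower and 3 higher without adjustment, against 6.75% and 4.23% of all genes. DESeq2 and the edgeR exact test called Tlr2 lower and Tnfaip3 higher. Tlr2, a receptor for bacterial lipoproteins, was at 10.1 ± 1.88 CPM in EV, 10.5 ± 0.446 in LAP and 4.28 ± 1.25 in LIP (SD, n = 3). Its log2 fold change in LIP against LAP was -1.28 ± 0.29 (adjusted p = 0.0391, edgeR), and the call was lost without any 1 of the libraries other than LIP library 3 (adjusted p = 0.0553 to 0.142), with total counts only (0.0636), under both low-count filters (0.165 and 0.213) and in the newer form (0.111). DESeq2 (adjusted p = 0.00267), the edgeR exact test (0.0135) and the replicate block (1.09e-05) kept it. With the replicate block, Tlr2 and Il1rap were lower and Nfkbie and Tnfaip3 higher in LIP than in LAP, against 4.79% and 1.72% of all genes.

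The lists of 14 inducing and partner cytokines, 9 mRNA decay factors and 27 signalling genes had 0 past the threshold in all 3 comparisons by the quasi-likelihood test, DESeq2 and the edgeR exact test. Without adjustment these lists had 1, 0 and 0 genes lower and 1, 0 and 1 higher in LIP against EV, against 6.75% and 4.23% of all genes. The smallest p in that comparison was that of Kitl, the ligand of the receptor Kit, with a log2 fold change of -0.55 ± 0.20 (adjusted p = 0.314, edgeR), of Zfp36, which promotes mRNA decay, with -0.46 ± 0.32 (adjusted p = 0.666), and of Arrb2, an arrestin that binds activated receptors, with 0.43 ± 0.16 (adjusted p = 0.345). With the replicate block, Il6 and Rgs16 were lower in LIP than in LAP.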

How the data were processed

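RNA was sequenced from Cebpb-ko MEFs with EV, LAP or LIP (3 libraries each). Values are the raw, unnormalized read counts per gene that the authors deposited, made with TopHat 1.4.1 on mm10 and HTSeq 0.5.4. Reads were 50 bp and single-end. Totals on genes were 24839139 to 33522082 per library. All 9 columns were used, and groups and replicate numbers come from the labels.

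Genes with at least 1 count in the 6 libraries of a comparison entered the quasi-likelihood test of edgeR 4.0.16 under R 4.3.3, using TMM factors (0.949 to 1.10) and Benjamini-Hochberg adjustment over all genes, with a threshold of 0.05. CPM use TMM over all 9 libraries and are given as mean ± SD, and the SE is that of the log2 fold change. For single members a two-sided exact permutation test was added. The test was tried on simulated counts with independent libraries and no changes among genes of low level. That trial does not bear on members with low counts or on libraries that deviate together.

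Described with every library are members past the threshold in any comparison or with a mean of at least 1 CPM in a group, and of each list the genes past the threshold or else that with the smallest p in LIP against EV. The members and lists were chosen with earlier results of these data known. Deviations of same-numbered libraries correlated by 0.389 to 0.505 in LIP and LAP and by 0.165 to 0.461 in LAP and EV. In LIP and EV they correlated by -0.138 to 0.247. The main fit and the permutation test did not use the replicate number in any comparison, so their p-values are unpaired. The number entered only the fits named as holding the replicate block or numbers. Positions are RefSeq on GRCm38.p6 and exon lengths the merged exons of GENCODE vM21. Protein sequences were not used here. Not every member at 0 counts is reported here by name. Figures were drawn with matplotlib 3.10.9. Alternatives tried were DESeq2 1.42.0, edgeR's exact test, other scalings, low-count filters, a joint model, the replicate block, leaving out each library, a threshold of 0.01 and, chosen after seeing the data, edgeR's newer quasi-likelihood form.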

Additional observations from a re-analysis of the deposited data

How the results depend on the processing

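Leaving out 1 library at a time, the members lower in LIP against EV numbered 0 (without LIP library 2) to 4 and those higher 0 to 1, those higher in LAP against EV 0 to 2, and those lower in LIP against LAP 1 (without LAP library 2) to 9. Against the 2 members lower in LIP against EV, DESeq2 and the edgeR exact test gave 5, all 9 libraries in a single model 4, total counts only 1, and filterByExpr, at least 10 counts in every library, the newer quasi-likelihood form and a threshold of 0.01 each gave 0. Against the 6 lower in LIP against LAP, both filters gave 0, the newer form 1 and a threshold of 0.01 gave 2. The filters also change which genes enter the fit, and the cause of these differences was not tested for any setting. LAP against EV gave 0 under all alternatives other than leaving out LAP library 3.

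With the replicate block, 7 members were lower (Ccl2, Ccl7, Cxcl1, Cxcl3, Cxcl5, Cxcl10 and Cxcr7) and 1, Ccl17, was higher in LIP against EV, where 2.21% and 0.357% of all genes were, 10 were lower and 1 higher in LIP against LAP, and 0 passed in LAP against EV. Same-numbered LIP and EV libraries did not all deviate together, nor did each library correlate best with its own number. Libraries of both groups did, however, deviate together with the LAP libraries of the same number. The library numbered 3 was also the lowest in all 3 groups for 10 of the 19 described members. Whether same-numbered LIP and EV libraries share more than a number was not settled. The block changed no call of a member in LAP against EV. It was not combined with a low-count filter or the newer quasi-likelihood form.

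Over the 57 log2 fold changes of the described members, 755 alternative values kept direction and side of the threshold, 25 passed it newly, 36 lost it and 31 changed sign. None of the values that changed sign belonged to a call. With the replicate block, Cxcl16 in LIP against EV was -0.0248, and Ccl5 and Cxcl10 in LAP against EV were -0.0261 and -0.00095. With total counts only, Ccl5 in LAP against EV was -0.0141 and Cxcr6 in LIP against LAP was 0.0147. With libraries left out in turn, Cxcl16 ranged from -0.46 to 0.26 in LIP against EV, from -0.28 to 0.22 in LAP against EV and from -0.42 to 0.29 in LIP against LAP. In LAP against EV, Ccl17 ranged from -0.29 to 1.22, Ccl20 from -1.03 to 0.28, Ccl25 from -0.0597 to 0.35, Ccl5 from -0.41 to 0.32, Ccr7 from -0.31 to 0.41, Cxcl10 from -0.33 to 0.47 and Cxcr7 from -0.0433 to 0.27. In LIP against LAP, Ccl17 ranged from -0.15 to 1.75, Ccl25 from -0.0198 to 0.34, Cx3cl1 from -0.62 to 0.25, Cxcr2 from -0.39 to 0.43 and Cxcr6 from -0.32 to 0.42. Detected members numbered 20 at the stricter floor, and the full C/EBP palindrome was in 0 member promoters. For the 18 members at trace level and the 7 at 0, differences were not detectable at this depth.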
